A study of Mus musculus with 8 samples.

Results

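Open chromatin was described at 9 mouse genes of class 3 semaphorin signalling, namely the 7 ligand genes Sema3a to Sema3g and the receptor genes Nrp1 and Nrp2, in cerebellar granule neuron progenitors (GNPs) at P7. The genes were taken as a named list and not for any measured value, and a peak was assigned to a gene if any base of it fell between 10 kb before the gene and 10 kb past it in mm10 with GENCODE M21. Such peaks numbered 145 of 152984 in wild type (WT), 110 of 106974 in het and 155 of 174407 in mutant. ATAC-seq uses the Tn5 transposase to insert adapters into accessible DNA, and a peak is a stretch with more inserts than its surroundings. The labels give the strain as C56Bl6/J, the tissue as cerebellum and the genotype as Chd7 wild type (3 libraries), Chd7 mutant (3 libraries) or Chd7 het (2 libraries). Per the study, the mutant pups carried homozygous floxed Chd7 with Atoh1-Cre, het pups carried 1 floxed allele with the same driver, and WT pups were homozygous for the floxed allele without Cre. The driver acts in granule cells and not in Purkinje cells, and the study saw Chd7 protein remaining in the posterior lobe, which it put down to probably less efficient recombination there. WT and mutant replicates were technical, so a list may stand for few animals.

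Each list was called on the pooled libraries of its genotype. No value below therefore has a replicate error, no difference was tested, and intervals cover counting error only. Tags after duplicate filtering numbered 50394313 in WT, 51030229 in mutant and 30923002 in het. WT and mutant had tag sizes of 107 and 76 bp and extensions of 90 and 88 bp. Tag size thus differed along with genotype, and its part in any difference between these lists cannot be told apart from that of genotype. Het came from another alignment with a 200 bp extension, so het was compared by presence and by rank within its list alone. The rank is the percentage of peaks of a list at or below the peak's -log10 q, and 100 is the strongest. As a check of the cell type, a peak within 1 kb of a start site was found for 7 of 8 GNP marker genes in WT and for 8 of 8 in mutant, the exception being Zic2. The tallest such peaks summed to 423 tags in WT and 480 in mutant over the GNP list. Markers of other cells were also open in WT, with peaks at 2 of 3 for Purkinje cells (Foxp2 and Calb1 ranked 93.5 and 89.1), 3 of 3 for inhibitory interneurons, 3 of 3 for astrocytes and Bergmann glia, 2 of 3 for oligodendrocytes (Olig2 and Mbp, with 36 and 32 tags) and 1 of 3 for microglia (Csf1r, 16 tags, in WT alone). The markers without a peak in any list were Pcp2, Sox10, Cx3cr1 and Aif1. Of 3 endothelial markers all had a peak, with summed heights of 57 tags in WT and 59 in mutant. The deletion in Chd7 was not checked here.

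Class 3 semaphorins are secreted proteins that steer axons, migrating neurons and vessels. Most of them bind a neuropilin, which has no signalling domain of its own and hands the signal to a plexin A, and Sema3e is an exception in that it binds plexin D1 directly. Neuropilins also bind vascular endothelial growth factor. The family is linked to CHARGE syndrome, the disorder caused by CHD7 mutation, through a reported SEMA3E mutation, and Sema3a guides the neurons and axons that fail in Kallmann syndrome, which overlaps with CHARGE.

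Whether Chd7 mutation left the accessible sites of these genes in place was examined first by presence of a peak. Of the 145 WT peaks, 33 had no overlapping mutant peak, 22.8% (Wilson 95% CI 16.7 to 30.2%), and the share over all WT peaks was 22.8%. No WT counterpart existed for 39 of the 155 mutant peaks, 25.2% (19.0 to 32.5%), and for 30.7% of the complete mutant list. The family as a whole thus had unshared peaks at about the rate of the complete lists. The unshared peaks were low. The pileup is the number of extended tags over the summit, and its median was 10 for unshared and 19 for shared WT peaks. In mutant the medians were 10 and 22. Among strong peaks, those whose -log10 q was at least 5, 7 of 95 WT peaks and 9 of 104 mutant peaks were unshared, where the complete lists had 5.78% and 11.2%. Introns held 28 of the 33 unshared WT peaks and 30 of the 39 unshared mutant peaks. They also held most peaks of these genes in general, 97 of 145 in WT (66.9%) and 99 of 155 in mutant (63.9%).

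The genes differed in how many peaks they had and kept. Sema3a, the longest at 477 kb, had 39 WT and 38 mutant peaks, and 14 of each were unshared. In Sema3c 4 of 9 WT peaks had no mutant peak (44.4%, 18.9 to 73.3%), and in Sema3e 8 of 26 (30.8%, 16.5 to 49.99%). At each of the 9 genes the interval of this share includes the 22.8% of all WT peaks, so none was seen to differ from the complete list. The short genes Sema3b, Sema3f and Sema3g kept all of their 4, 9 and 5 WT peaks, with intervals up to 49.0, 29.9 and 43.4% unshared. Nrp1 went the other way, with 13 WT and 22 mutant peaks, of which 9 had no WT peak (40.9%, 23.3 to 61.3%), again around the 30.7% of all mutant peaks. Het peaks numbered between 4 in Sema3b and Sema3g and 27 in Sema3a.

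**Figure D1:**
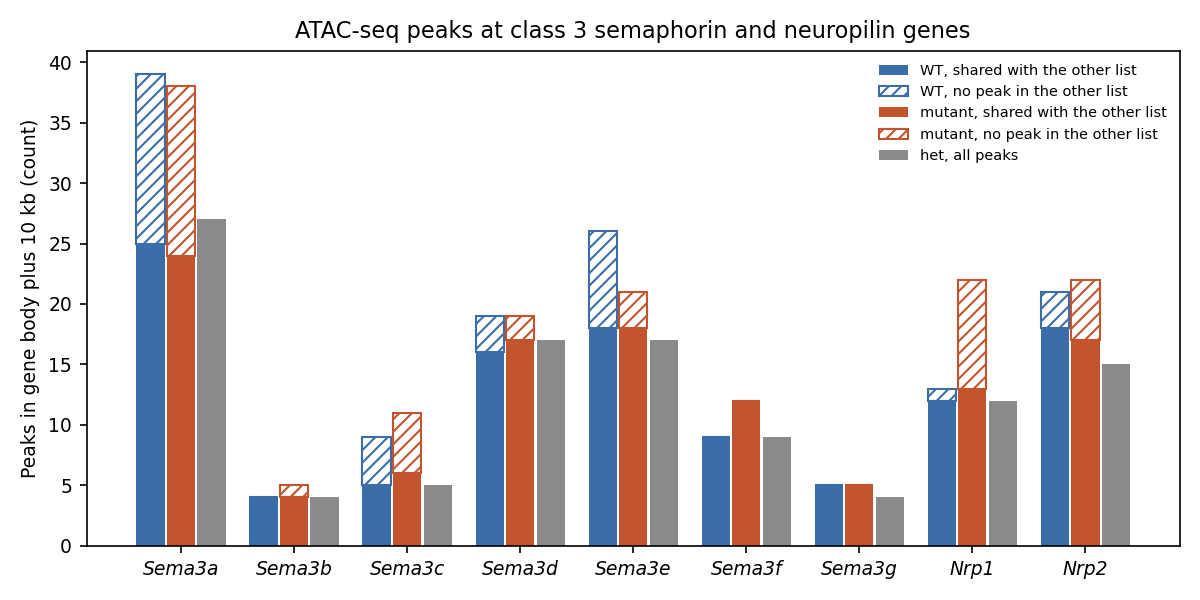
Number of ATAC-seq peaks (vertical axis, count) in the gene body plus 10 kb of each gene (horizontal axis). Filled WT and mutant bars are peaks with a partner in the other list, hatched parts are peaks without one, and grey bars are all het peaks. Hatched parts are tallest in Sema3a, with 14 peaks in each list, and absent from both lists in Sema3f and Sema3g.

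For the 112 shared WT peaks, height was compared as depth-scaled pileup, that is pileup divided by the tags of the list, using the tallest overlapping mutant peak. The median ratio of mutant to WT was 1.05, or 0.06 on the log2 scale (95% CI of the median over peaks -0.05 to 0.17), and that of all 118098 shared peaks was also 1.05. At least 1.5 times lower in mutant were 8 of the 112 peaks, 4 of them in Sema3d, beside 3.61% of all shared peaks. At least 1.5 times higher were 12, beside 8.37%, and 9 of these 12 were pairs of 1 WT and 1 mutant peak. With the authors' fold enrichment (pileup over local background) as height 0 were lower, beside 1.94% of all shared peaks. With depth-scaled pileup, 2 of the 88 shared peaks that were strong in WT were higher. The share over all such peaks was not computed. By gene the median log2 ratio lay between -0.14 in Sema3d and 0.24 in Sema3e. In each gene the interval of the median over peaks overlapped those of the others.

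**Figure D2:**
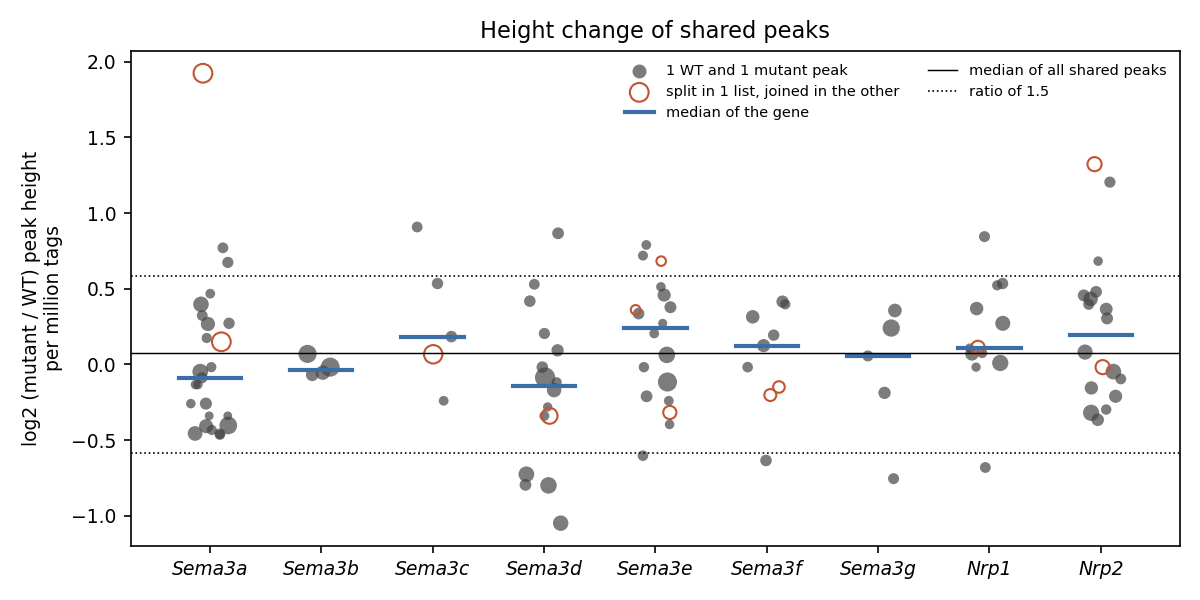
Log2 ratio of mutant to WT depth-scaled pileup (vertical axis) for each shared peak of each gene (horizontal axis), with point area growing with pileup. Blue bars are gene medians, the solid line is the median of all shared peaks, 0.08, dotted lines mark a ratio of 1.5, and open circles are peaks that were split in 1 list and joined in the other. The points of Sema3d reach down to -1.05, and the highest points of Sema3a (1.92) and Nrp2 (1.32) are open circles.

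At least 1 annotated start site of each of the 9 genes was open in all 3 lists. The peak at the Sema3d start was the tallest, with 86 tags in WT and 82 in mutant, and it ranked 98.9 in WT, 98.1 in mutant and 98.0 in het. It was followed by Sema3c with 66 tags in WT and 70 in mutant, Sema3a with 65 and 73, Sema3e with 52 and 55 and Sema3g with 51 and 61. The Sema3g peak also lies within 1 kb of a start of the neighbouring gene Nisch. Lower peaks stood at annotated starts of Nrp2 (42 and 45 tags), Nrp1 (36 and 44), Sema3b (29 and 28) and Sema3f (27 and 34). The exact Poisson intervals of neighbours in this order overlapped in WT, such as 68.8 to 106 tags for Sema3d and 51.0 to 84.0 for Sema3c. Ratios of mutant to WT at these 9 peaks ran from 0.942 in Sema3d to 1.24 in Sema3f. Every exact 95% interval included 1, so no difference was detectable at this depth at any of these start sites. The peaks of Sema3a, Sema3b and Sema3f were at internal annotated starts, taken because they were the tallest in WT. Sema3b had no WT peak within 1 kb of its annotated 5′ end. At the WT peak within 1 kb of the Sema3f 5′ end, the ratio was 0.869 (0.467 to 1.61).

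**Figure D3:**
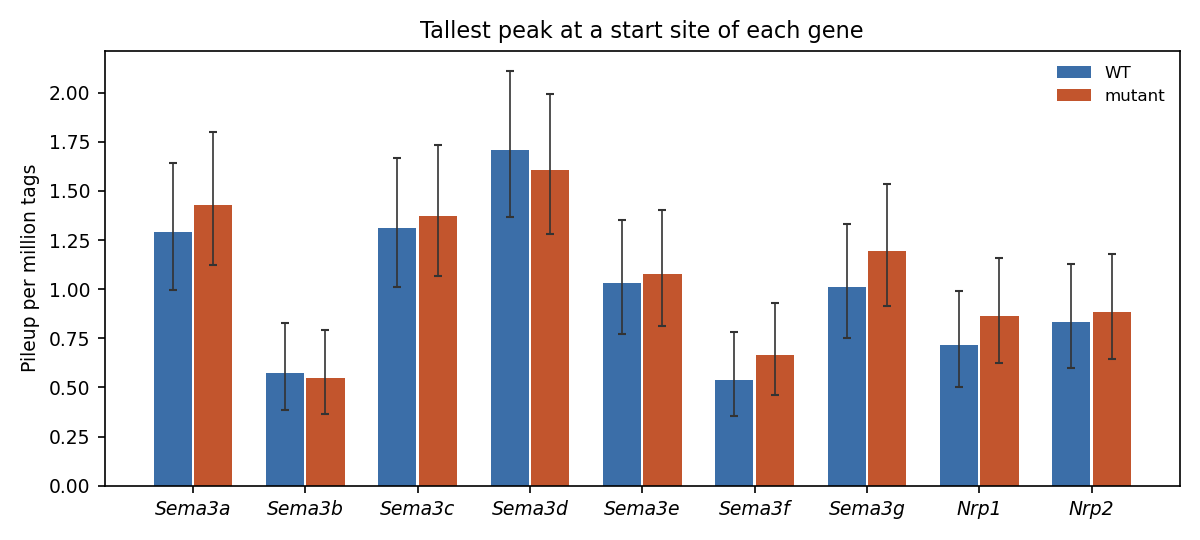
Depth-scaled pileup (vertical axis, tags at the summit relative to the tags of the list) of the tallest WT peak at a start site of each gene, with its mutant partner. Error bars are exact 95% Poisson intervals of the pileup and cover counting error only. WT and mutant bars overlap in their intervals at all 9 genes, and Sema3d is tallest in both lists.

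Sema3d (ENSMUSG00000040254.11, chromosome 5, 12383385 to 12588948, plus strand), which encodes a ligand known for patterning vessels and neural crest derivatives, held 4 of the 8 shared peaks that were at least 1.5 times lower in mutant. Of these, 3 formed a group upstream of a start site whose own height was kept. The distal one, 7.71 kb upstream (12375407 to 12375816), had 55 tags in WT and 32 in mutant, a ratio of 0.575 (exact 95% CI 0.360 to 0.904). The middle one, 5.93 kb upstream (12377372 to 12377659), had 47 and 23 tags, a ratio of 0.483 (0.280 to 0.812). The proximal one, 5.28 kb upstream (12378057 to 12378345), had 24 and 14 tags, and its ratio of 0.576 had an interval that included 1 (0.276 to 1.16). Inside the gene, an intronic peak 62.1 kb from the start (12445392 to 12445816) had 49 tags in WT and 30 in mutant, a ratio of 0.605 (0.371 to 0.972). A further intronic WT peak 69.5 kb from the start (12452805 to 12452997), with 23 tags and a -log10 q of 15.7, had no mutant peak at all and was the strongest unshared WT peak of the 9 genes. These 5 sites were selected for their low or missing mutant peak, so their shared direction is no result. The 3 upstream peaks lie within 3 kb of each other and are not independent observations.

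The measure of height mattered here. Fold enrichment, the authors' ratio of pileup to local background, put 0 of the 16 shared Sema3d peaks at or below the 1.5-fold limit. At the distal, middle and proximal upstream peaks and the intronic one, mutant fold enrichment was 0.818, 0.693, 0.777 and 0.758 times that of WT. The local background implied by the files was itself lower in mutant at these sites, 2.41 against 3.74 tags at the distal peak, 2.95 against 4.11 at the proximal one and 1.72 against 2.32 at the intronic one, but 6.54 against 6.51 at the start site. Since no control library was used, that background holds the tags of the peaks themselves. Its lowest value, 1.68 tags in WT and 1.66 in mutant, recurred at many peaks, and the mutant value of 1.72 at the intronic site lies close to it. With depth-scaled pileup, 11 of 2026 protein-coding genes with at least 10 shared peaks had a share of lower peaks as high as the 4 of 16 (25%) in Sema3d, and 1161 of the 2026 had none. This count was chosen after the values had been seen, and neighbouring genes can share peaks. The remaining 12 shared Sema3d peaks had ratios on both sides of 1. Of them, 1 at 124 kb from the start was higher in mutant, with 13 tags in WT and 24 in mutant (1.82, 0.892 to 3.90). It lies within 300 bp of an unshared exonic WT peak of 15 tags (12508005 to 12508238), and 1 het peak overlaps both.

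**Figure D4:**
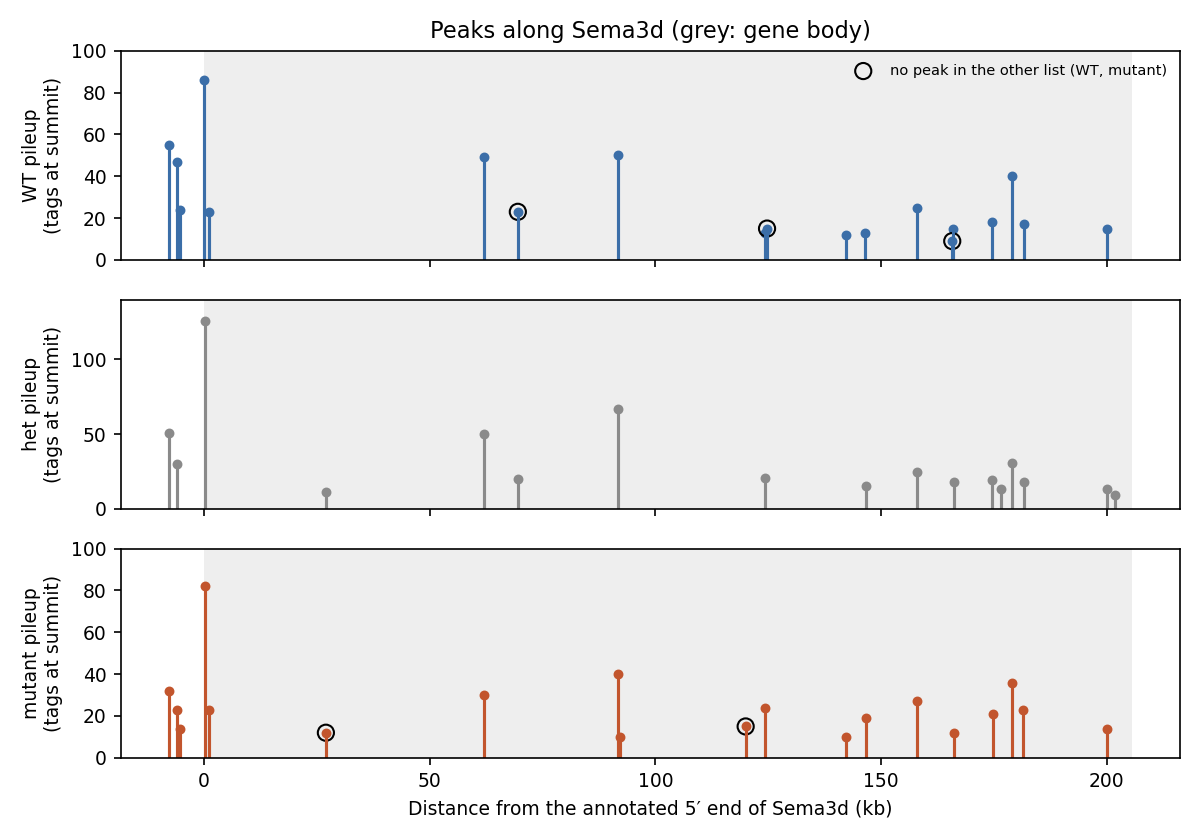
Pileup at the summit in tags (vertical axes) of each Sema3d peak against its distance from the annotated 5′ end in kb (horizontal axis), for WT, het and mutant, with the gene body in grey. Het heights are on another scale because of the 200 bp extension, and black circles mark WT and mutant peaks without a partner. The upstream WT peaks of 55, 47 and 24 tags stand at 32, 23 and 14 in mutant, while the start site peak has 86 and 82.

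In het, peaks were present at the distal and middle upstream sites and both intronic sites but not at the proximal one. Ranks at the distal site were 94.7 in WT, 83.6 in het and 84.4 in mutant, at the middle site 90.5, 59.2 and 70.6, and at the intronic site that was lower in mutant 95.6, 87.2 and 86.1. The het rank was below the WT rank at each of these 3 sites. This was also so for 76.7% of all shared WT peaks with a het peak and for 98.0% of those at least 1.5 times lower in mutant, and these comparisons share the WT values.

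The sequences of these Sema3d sites are shown because the sites were selected above for their low or missing mutant peak. The start site is shown beside them as a site whose height was kept. Each is 151 bases of the mm10 plus strand centred on the WT summit, and capitals mark a match to a searched motif on either strand.
Sema3d upstream, distal (chr5:12375604-12375754): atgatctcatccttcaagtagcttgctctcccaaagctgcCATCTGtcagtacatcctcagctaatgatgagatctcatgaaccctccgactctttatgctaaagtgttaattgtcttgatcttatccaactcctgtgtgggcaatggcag
Sema3d upstream, middle (chr5:12377378-12377528): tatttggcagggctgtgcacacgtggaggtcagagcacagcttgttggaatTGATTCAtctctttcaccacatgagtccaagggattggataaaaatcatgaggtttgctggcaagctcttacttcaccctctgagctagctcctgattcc
Sema3d upstream, proximal (chr5:12378030-12378180): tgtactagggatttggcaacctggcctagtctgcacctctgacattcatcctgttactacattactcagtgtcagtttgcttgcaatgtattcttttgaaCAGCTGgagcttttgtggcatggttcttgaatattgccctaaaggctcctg
Sema3d start site (chr5:12383390-12383540): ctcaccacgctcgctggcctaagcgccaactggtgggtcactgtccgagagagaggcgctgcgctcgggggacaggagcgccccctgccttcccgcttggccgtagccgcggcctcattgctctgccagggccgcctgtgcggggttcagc
Sema3d intron, lower in mutant (chr5:12445436-12445586): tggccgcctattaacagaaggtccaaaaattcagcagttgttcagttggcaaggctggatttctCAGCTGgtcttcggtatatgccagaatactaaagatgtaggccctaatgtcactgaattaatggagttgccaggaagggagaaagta
Sema3d intron, no mutant peak (chr5:12452835-12452985): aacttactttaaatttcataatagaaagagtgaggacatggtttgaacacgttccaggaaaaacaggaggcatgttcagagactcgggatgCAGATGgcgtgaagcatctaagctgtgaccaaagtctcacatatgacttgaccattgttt
The start site window was 70.9% G and C and held no match, while the other windows had between 41.1 and 47.7% and held 1 match each. The matches were the E-box CAGATG (written CATCTG on the other strand) at the distal upstream site and the intronic site without a mutant peak, the E-box CAGCTG at the proximal and the other intronic site, and the AP-1 motif TGANTCA at the middle site.

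For these E-boxes and the AP-1 motif, the shares over all WT windows lay inside the intervals of the 9 genes. In 300 bp windows at WT summits, CAGCTG was found in 40 of 145 windows of the 9 genes, 27.6% (Wilson 95% CI 20.96 to 35.4%), and in 28.6% of all WT windows. CAGATG was found in 31.7% (24.7 to 39.7%) and 34.8%, and at least 1 of both E-boxes, the sites of proneural factors such as Atoh1, in 51.0% and 53.5%. TGANTCA was found in 10.3% (6.37 to 16.4%) and 8.97%. The nuclear factor I palindrome was found in 2 windows, both in introns of Sema3a, 1.38% (0.379 to 4.89%) beside 0.114% of all WT windows. The CTCF core was found in 2, at the internal Sema3b start and in the Sema3f window, beside 0.634%. All were searched on both strands, and matches to different motifs were counted separately even where they overlapped. In Sema3d CAGCTG was in 8 of 19 windows (42.1%, 23.1 to 63.7%) and CAGATG in 4 (21.1%, 8.51 to 43.3%), and both intervals include the share over all WT windows.

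Sema3a (ENSMUSG00000028883.17, chromosome 5, 13125414 to 13602565, plus strand) encodes the founding repulsive ligand of the class, which acts through Nrp1. Its annotated 5′ end had weak peaks, of 10 tags each in WT. The tall start site peak stood 274 kb inside the annotated gene (13399102 to 13399651), at an internal annotated start. There WT had 65 tags and mutant 73, and the peak ranked 95.3 in WT, 97.4 in mutant and 93.4 in het. A weak WT peak beside it (13398838 to 13398950, 19 tags) overlapped the same mutant peak of 73 tags and therefore had the highest ratio of all members, 3.79, which compares the flank of a peak in WT with its summit in mutant. Its 4 tallest intronic peaks had ratios under 1, with 64 tags in WT and 49 in mutant at 454 kb from the 5′ end (ratio 0.756, 0.510 to 1.11), 49 and 48 tags at 344 kb, 42 and 31 tags at 296 kb and 38 and 29 tags at 189 kb. The next 2 had ratios over 1, with 36 and 48 tags at 404 kb and 32 and 39 tags at 280.2 kb. The interval of each of these 6 ratios included 1. Of its 25 shared peaks 15 had a lower depth-scaled pileup in mutant, beside 42.4% of all shared peaks, and 0 were at least 1.5 times lower. Of its 23 strong WT peaks 4 were unshared, beside 5.78% of all strong WT peaks, and the strongest (13150038 to 13150161) had 17 tags.

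Sema3e (ENSMUSG00000063531.7, chromosome 5, 14025276 to 14256689, plus strand) had its tallest peak not at the start but in an intron 14.1 kb downstream (14038975 to 14039524), with 76 tags in WT and 71 in mutant and ranks of 99.1 in WT, 98.6 in mutant and 94.4 in het. The ratio of mutant to WT was 0.923 (0.658 to 1.29). An intronic peak 15.2 kb from the start, with 18 and 12 tags, was the only shared Sema3e peak at least 1.5 times lower, and 3 were at least that much higher, each with 15 tags or fewer in both lists. Sema3c (ENSMUSG00000028780.13, chromosome 5, 17574281 to 17730268, plus strand), a ligand needed for the cardiac outflow tract, had no tall peak apart from its start. After peaks of 66 and 20 tags there, no WT peak in the rest of its window had more than 15 tags. The median over all WT peaks was 16 tags. One intronic peak 12.5 kb from its start had 10 tags in WT and 19 in mutant (1.88, 0.830 to 4.52).

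Sema3b and Sema3f lie near each other on chromosome 9 (107597674 to 107609229 and 107681500 to 107710475, both minus strand), in windows that also hold starts of other genes. In the Sema3b window the tallest peak, with 76 tags in WT and in mutant, was at the start of Ifrd2, and the next, with 64 and 68 tags, was 3.58 kb upstream of Sema3b. The 4 shared peaks of Sema3b had the narrowest spread of the 9 genes, with log2 ratios from -0.07 to 0.07. Sema3f, the ligand that acts mainly through Nrp2, had 9 WT peaks of at most 29 tags. Its lowest ratio, 0.644 (0.313 to 1.29), was at an internal start site (107693360 to 107693859), where WT had 23 tags and mutant 15, with ranks of 68.0 in WT, 39.8 in mutant and 45.2 in het. Sema3g (chromosome 14, 31217860 to 31230352, plus strand), a ligand described mainly in endothelium, had 1 exonic peak of 20 tags in WT and 12 in mutant, a ratio of 0.593 with an interval that included 1 (0.264 to 1.27), and no het peak there.

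Nrp1 (ENSMUSG00000025810.9, chromosome 8, 128358604 to 128503363, plus strand) is the receptor of Sema3a and a co-receptor for vascular endothelial growth factor. Its tallest peak, 1.34 kb upstream of the start, had 52 tags in WT and 53 in mutant, and a het peak was present. All 9 mutant peaks without a WT peak were intronic. They had between 8 and 17 tags, 2 of them were strong by the limit above, and 1 had a het peak. Shared Nrp1 peaks had a median ratio of 1.08, with 1 of 12 at least 1.5 times lower (19 and 12 tags, beyond the 3′ end) and 1 higher (11 and 20 tags at 128418527 to 128418645, ratio 1.80, 0.820 to 4.15). Nrp2 (ENSMUSG00000025969.15, chromosome 1, 62703285 to 62818695, plus strand), the receptor preferred by Sema3f, had 21 WT and 22 mutant peaks, and tall intronic peaks 108 kb (53 tags in WT, 43 in mutant) and 74.3 kb (49 and 48) from its start. Another pair of intronic WT peaks, with 15 and 38 tags, was joined to 1 peak of 38 tags in mutant, so the log2 ratio of 1.32 at the weaker one again set a flank against a summit. Near a start of the non-coding gene Gm29083 inside Nrp2 there were 2 shared peaks. At the weaker one WT had 9 tags and mutant 21, and a het peak was present (ratio 2.30, 1.01 to 5.71). The taller one (62718022 to 62718222) had 20 tags in WT and 25 in mutant and no het peak (ratio 1.23, 0.658 to 2.34).

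The strongest mutant peaks without a WT peak were in Nrp2 and Nrp1. The first lay in an intron of Nrp2 42.8 kb from the start (62746042 to 62746155), with 22 tags, a -log10 q of 10.8 and no het peak. The second, 40.1 kb from the start (62743211 to 62743607), had 18 tags and a het peak. Next came Nrp1 peaks of 17 tags (128416984 to 128417180) and 14 tags (128383290 to 128383419), and a Sema3a peak of 20 tags (13470250 to 13470346). The sequence at the first is given as the strongest site seen in mutant alone, with both E-boxes in capitals.
Nrp2 intron, no WT peak (chr1:62746036-62746186): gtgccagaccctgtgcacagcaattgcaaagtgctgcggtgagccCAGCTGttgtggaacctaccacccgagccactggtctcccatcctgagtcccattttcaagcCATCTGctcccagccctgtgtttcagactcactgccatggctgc
After the unshared Sema3d peak, the strongest WT peaks without a mutant peak were those of Sema3a with 17 tags and, with 15 tags each, of Sema3a (13279209 to 13279342), Sema3e (14215468 to 14215691) and an exon of Sema3d (12508005 to 12508238). The Sema3e and Sema3d ones had a het peak. That het peak of Sema3d also overlaps the shared peak 124 kb from the start, which was higher in mutant. The 2 WT peaks join to 1 region within 300 bp, so they are not a separate loss and gain.

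Over the 9 genes het peaks coincided with 99 of 145 WT peaks (68.3%, 60.3 to 75.3%, beside 63.1% of all WT peaks) and 97 of 155 mutant peaks (62.6%, 54.7 to 69.8%, beside 58.7%). WT peaks with a mutant partner had a het peak in 93 of 112 cases, beside 77.9% of all shared WT peaks. At the unshared sites het peaks were few, at 6 of 33 WT peaks (18.2%, 8.61 to 34.4%, beside 13.2%) and 3 of 39 mutant peaks (7.69%, 2.65 to 20.3%, beside 15.2%). Joined within 300 bp, the 3 lists gave 178 regions at these genes. All 3 lists held 88 of them (49.4%, against 45.7% of all regions), WT alone 24 (13.5%, against 13.3%), mutant alone 34 (19.1%, against 20.1%) and het alone 10 (5.62%, against 3.52%).

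Partners of the class 3 semaphorins were then counted, from a list of 23 genes made of plexins, adhesion co-receptors, growth factor receptors and intracellular effectors. Of their 305 WT peaks 39 had no mutant peak, 12.8% beside 22.8% of all WT peaks, and of their 366 mutant peaks 93 had no WT peak, 25.4% beside 30.7%. Among 266 shared peaks 2 were at least 1.5 times lower in mutant and 20 at least that much higher, where all shared peaks had 3.61% and 8.37%. Plxna2 had 4 of the higher ones among 22 shared peaks and Plxna4 3 among 32, both of them plexin A receptors, while Nrcam (31 shared), Flt4 (6) and Dpysl5 (17) had 2 each. The receptor Plxnd1, which binds Sema3e, kept all of its 8 WT peaks. The interval, up to 32.4% unshared, includes the 22.8% of all WT peaks, and 3 of its 11 mutant peaks had no WT peak. Dpysl3 and Dpysl5, among others, also kept all of their 15 and 17 WT peaks. In other guidance families the transmembrane semaphorins Sema6a to Sema6d had 23 of 96 WT peaks without a mutant peak (24.0%, beside 22.8%), and of 73 shared peaks 1 was at least 1.5 times lower and 4 were higher. The Slit and Robo genes had 60 of 286 WT peaks without a mutant peak, and of 226 shared peaks 14 were lower, beside 3.61%, and 11 higher, beside 8.37%. Of the 14 lower ones 8 were among the 40 shared peaks of Robo2, a receptor of the Slit proteins.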

How the data were processed

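ATAC-seq libraries were made from freshly isolated P7 GNPs. Per the labels, the authors' processing used Trim Galore 0.4.1, STAR 2.5.0b for WT and mutant or Bowtie 1.0.0 for het, Picard 1.139 and MACS2 2.1.0.20150731 with mm10. Per the file headers, MACS2 was run on pooled libraries without control at a q-value cutoff of 0.05, and reads were shifted by -100 bp and extended to 200 bp for het alone, although the study's methods describe Bowtie and these settings for all groups. The lists were matched to genotypes by the names the authors gave them. The deposited values used were the signal (pileup at the summit in tags, not scaled to depth), the fold enrichment ratio and the -log10 q-value, and positions in bp. The deposited -log10 p-values were not used. The number of columns left out for want of a group was 0.

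Genes and start sites were those of GENCODE M21, protein-coding and long non-coding. No peak lay past the end of a chromosome of GRCm38. A peak was shared when 1 bp or more of it overlapped a peak of the other list. Pileups were divided by tags after filtering, and a single ratio was given the exact Clopper-Pearson interval of its pileups. Single peaks were named when at a start site, among the 2 tallest WT peaks of a gene, among the 5 strongest unshared peaks of a list, or among the 5 lowest or highest ratios with a pileup of 20 or more, and the other single peaks given were chosen after their values were seen. The genes and lists were chosen with earlier results of these data known. Overlap and ratio steps were tested on simulated data. Calculations used python 3.11.15, numpy 2.4.6, pandas 2.3.3 and scipy 1.17.1. Alternatives were another overlap, a stricter -log10 q, lists of equal length, other gene windows, median scaling, fold enrichment and 1 to 1 pairs.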

Additional observations from a re-analysis of the deposited data

How the results depend on the processing

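No paired analysis was possible because each genotype contributed 1 pooled list, so that no replicate could be left out in turn either. Unshared WT peaks made up 32.4% with a 50% reciprocal overlap, 7.37% among strong WT peaks (-log10 q at least 5) and 15.8% when both lists were restricted to strong peaks. Unshared mutant peaks made up 36.8% with the reciprocal overlap and 8.65% among strong mutant peaks. The cause of these shifts was not tested, beyond the stricter overlap and the smaller lists themselves. Over the complete lists, 5.78% of strong WT peaks and 11.2% of strong mutant peaks were unshared. No such share was computed with the reciprocal overlap or with both lists restricted, so those values cannot be set against all peaks. The number of shared peaks at least 1.5 times lower in mutant, 8 as reported, was 0 with fold enrichment (the cause was not tested) and 4 in gene bodies alone, which leaves out the upstream Sema3d peaks. The number at least 1.5 times higher, 12 as reported, was 2 among strong WT peaks, so that 10 of the 12 were weak in WT. The median height ratio stayed inside its interval under all 6 alternatives tried, from -0.02 to 0.07 on the log2 scale, and was below 0 with median scaling and among strong WT peaks. The 5 lowest and 5 highest named ratios kept their direction with median scaling and with fold enrichment. Median scaling lowers every log2 ratio by 0.08, less than the size of any of these, so it could change no direction. Fold enrichment is built on the same pileups. Most WT peaks of these genes had few tags (median 19 where shared, 10 where not), and intervals still included 1 at ratios of 0.576 (24 and 14 tags) and 1.88 (10 and 19 tags), so changes past 1.5-fold were also not detectable at such depths.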

Other observations

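The stretches around the chromosome 5 genes were looked at after the values of Sema3d had been seen, and they are given as values. Between 10 and 400 kb upstream of the Sema3d start, 12 of 19 WT peaks had no mutant peak, beside 22.8% of all WT peaks. The 7 shared ones all had a lower depth-scaled pileup in mutant, 3 of them at least 1.5 times (beside 3.61% of all shared peaks), with a median ratio of 0.724. The tallest had 30 tags in WT and 29 in mutant, and the one 85.8 kb upstream had 24 and 11. Between Sema3d and Sema3a, a stretch of 516 kb without the 10 kb flanks, 14 of 28 WT peaks lacked a mutant peak and 7 of 21 mutant peaks lacked a WT peak. Of the 14 shared WT peaks there, 2 were at least 1.5 times lower and 0 at least 1.5 times higher. Between Sema3a and Sema3e, over 403 kb, 7 of 13 WT peaks and 13 of 19 mutant peaks were unshared, beside 22.8% and 30.7% of the complete lists. Over the 3298 kb between Sema3e and Sema3c 67 of 205 WT peaks (32.7%) had no mutant peak, and 76 of 218 mutant peaks had no WT peak. The stretches held 5.42, 3.23 and 6.22 WT peaks per 100 kb in the order given, and the Sema3d and Sema3c windows 8.42 and 5.11.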
